A study of Drosophila melanogaster with 24 samples.

Results

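Neuropeptide and peptide-hormone genes, together with the genes for the proteins that process their precursors, were followed through a 3′ RNA-seq series of single Drosophila brains collected after traumatic brain injury (TBI). The set held 42 of the 16995 genes in the count table and was chosen by gene symbol, with no measured value in the rule. Earlier results of these data were known when it was chosen. The set comprised 36 genes for peptide precursors and 6 genes for processing proteins, and all 42 symbols were present. The flies were w1118, a white-eyed laboratory strain, adult and mated. They were 10 to 14 days old. Injured flies received 1 strike of a high-impact trauma device, which throws the whole fly against the wall of its vial and is not confined to the head. Female-labelled and male-labelled brains were each taken from uninjured controls and at 1, 2 and 4 hr after TBI, which gave 8 groups of 3 libraries, each library from the brain of 1 fly. The study asked whether the early response to injury differs by sex.

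Neuropeptides are made as long precursors that enter the secretory pathway. They are cleaved at paired basic residues by a prohormone convertase, trimmed by a carboxypeptidase and often amidated at the carboxyl end before they are stored in dense-core vesicles. In flies they are released within the brain as modulators or into the circulation as hormones, mostly from small, fixed groups of neurons, and are known for the control of feeding, metabolism, water balance, sleep and stress responses.

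Total counts were 46943 to 1769669 per library (median 536672), so 1 count was worth 0.662 to 16.9 CPM (counts per 1000000, scaled by TMM), and 22 to 38 members had a count in a library. The 4 shallowest libraries, with 46943 to 72792 counts, were control replicate 3 and 1 hr replicate 2 of the female label and control replicate 3 and 4 hr replicate 2 of the male label. roX1, a non-coding RNA of the male dosage compensation complex, was at 706 to 1249 CPM in 22 libraries, 10 of them with the female label, which it goes against. It was at 6.02 CPM in female-labelled 2 hr replicate 2 and at 78.1 CPM in female-labelled 4 hr replicate 2. The same 2 libraries stood apart in other markers. The summed level of 12 neuron markers was 640.4 and 2557 CPM there, against 3096 to 4881 CPM in the other 22 libraries, and that of 6 gut markers was 4.01 and 70.1 CPM, against 456 to 949 CPM. The part of these differences in the results was not tested. For some results that rest on the 2 libraries, values without them are also given. Others are given only with them. dimm, which encodes a transcription factor of peptidergic neurons, had no read in any library.

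Reads were obtained for 39 of the 42 members. In these whole-brain counts, fewer cells of a type and less RNA per cell cannot be told apart. A read was present in all 24 libraries for 14 members, in 4 to 23 libraries for 22 and in 1 to 3 libraries for 3. The median level over the 24 libraries was over 100 CPM for 11 members, 20 to 100 CPM for 13, above 0 and under 20 CPM for 11, and 0 for 7. The 8 highest medians were those of Nplp2 (2311 CPM), 7B2 (857 CPM), Nplp3 (734 CPM), Akh (479 CPM), Dh44 (359.9 CPM), Phm (348 CPM), ITP (241 CPM) and Ilp2 (171 CPM). Reads come from the 3′ end of each transcript, so CPM was not divided by gene length. Neighbours in this order overlapped in their ranges over libraries. Nplp2 ranged from 936 to 16991 CPM, 7B2 from 214 to 1255 CPM and Nplp3 from 506 to 2490.3 CPM.

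The other members formed a long tail of peptides, most of which come from few neurons. NPF and sNPF, known for their roles in feeding, had median levels of 92.0 and 14.5 CPM. Capa, whose peptides act on the renal tubules, had a median of 88.4 CPM, and Pdf, which encodes the output peptide of circadian clock neurons, 34.8 CPM. Medians were 43.5 CPM for AstC and 39.9 CPM for AstA, both allatostatin genes, and 24.1 CPM for Mip, the myoinhibitory peptide gene. Other members in this range were CCHa2 (59.3 CPM), the proctolin gene Proc (36.9 CPM), the diuretic hormone gene Dh31 (35.2 CPM) and the corazonin gene Crz (21.4 CPM). CCHa1 and Nplp4 had medians of 16.1 and 16.0 CPM, and FMRFa, Nplp1 and SIFa had 6.76, 5.16 and 4.58 CPM, which is less than 1 count in the shallowest library (16.9 CPM). AstCC, CCAP, Eh and amn had 27, 7, 4 and 3 reads over the whole series. Burs and Pburs, which encode the bursicon subunits, and ETH, which encodes the ecdysis-triggering hormone, had 0 of 16767390 reads, which allows up to 0.179 CPM over the pooled libraries. Bursicon, ETH, Eh and CCAP are known for the control of moulting and of the hardening of new cuticle.

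**Figure D1:**
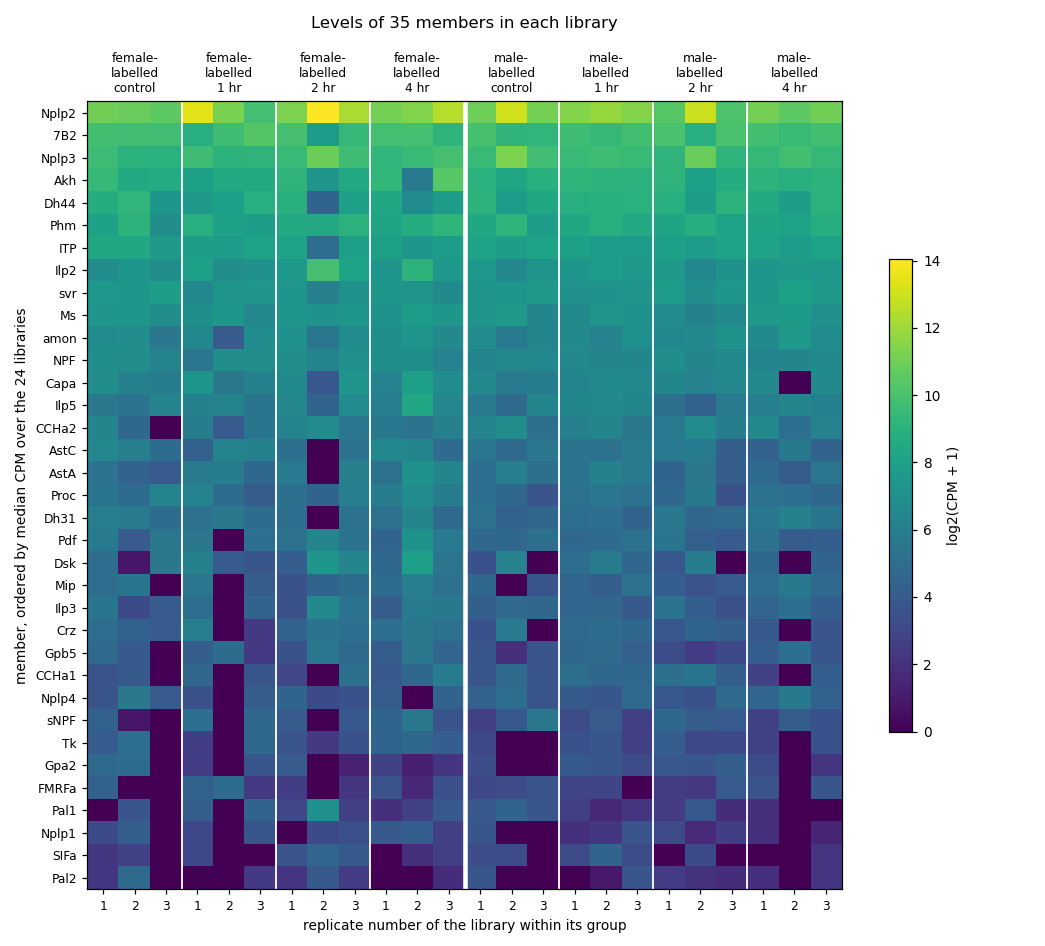
Level of the 35 members with a median above 0 in each of the 24 libraries as log2(CPM + 1), with members ordered by median down the page and libraries by group from left to right. Nplp2 leads with 936 to 16991 CPM, and female-labelled 2 hr replicate 2 and 4 hr replicate 2 differ from their neighbours in many members.

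To ask which members differed after injury, each injured group was set against the control of its sex label with edgeR's quasi-likelihood test over all genes that passed a filter on low counts. At an adjusted p under 0.05 with an absolute log2 fold change over 1, the threshold of the study, edgeR called 0 members, and 0% of the tested genes, in each of the 11 comparisons made. DESeq2 also called 0 members, with 47 genes at 2 hr under the female label and 2 genes for the sex-label difference at 2 hr. It gave no p-value for Nplp2 at 1, 2 or 4 hr under the male label, so Nplp2 could not be called there. limma-voom called 0 members and 0 genes. With no filter on low counts, 1 member, Nplp2 at 2 hr under the female label, passed (log2 difference 2.09, edgeR adjusted p = 0.0132). An unadjusted p under 0.05 with the same fold served below as a description only. By that rule, female-labelled brains gave 0 of 34 tested members at 1 hr, where 1.66% of 5918 genes passed, 2 at 2 hr (7.13% of genes) and 0 at 4 hr (5.09%). Male-labelled brains gave 1 of 28 tested members at 1 hr, where 0.916% of 4474 genes passed, 0 at 2 hr (1.77%) and 0 at 4 hr (1.32%). Over all 24 libraries, 2 of 31 tested members passed between female and male controls, where 1.96% of 5462 genes passed, and 0 passed for any TBI time against control (3.13%). The sex-label difference in the change after injury gave 0 of 31 members at 1 hr (1.72% of genes), 4 at 2 hr (5.44%) and 0 at 4 hr (6.35%).

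These counts moved with single libraries. Under the female label, the 2 hr count was 0 without control replicate 3 or TBI replicate 2, 1 without control replicate 1 and 4 without TBI replicate 1. The 1 hr count was 1 without control replicate 1 or any of the 3 TBI libraries, and the 4 hr count was 1 without control replicate 1 or TBI replicate 3 and 2 without TBI replicate 1. Under the male label, the 1 hr count was 3 without control replicate 1 and 0 without any of the 3 TBI libraries, the 2 hr count was 4 without TBI replicate 2, and the 4 hr count was 3 without control replicate 1. Between controls, the count was 4 without replicate 1 of either label, 1 without replicate 3 of either label or replicate 2 of the female label, and 0 without replicate 2 of the male label. For the sex-label difference at 2 hr, the count was 2 without female control replicate 1 or 2, and 1 without female 2 hr replicate 2, male control replicate 2, or male 2 hr replicate 1 or 3. At 1 hr it was 1 without female control replicate 1 or 2 or female 1 hr replicate 2, and 2 without female 1 hr replicate 3 or male control replicate 1. At 4 hr it was 1 without female control replicate 1 or 2, female 4 hr replicate 1 or male 4 hr replicate 1, and 3 without male control replicate 1.

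The members as a group lay close to all genes in most comparisons. Under the female label, the median log2 difference of the tested members was -0.07 at 1 hr, 0.06 at 2 hr and 0.41 at 4 hr, beside 0.05, 0.00 and 0.04 for all tested genes. At 4 hr, 25 of 34 members were positive and 9 negative, and the median was 0.30 without 4 hr replicate 2 and 0.19 without control replicate 3. Under the male label, the medians were 0.10, -0.11 and 0.07 at 1, 2 and 4 hr, beside -0.04, 0.02 and -0.02 for all tested genes. The 3 injured libraries and the 3 controls did not overlap for 2 of 34 members at 1 hr under the female label, where 6.91% of genes did not overlap, for 4 at 2 hr (14.7%) and for 3 at 4 hr (11.8%). All 9 injured female-labelled libraries lay on 1 side of the controls for 1 of 34 members, svr, and for 1.33% of genes. Under the male label the groups did not overlap for 4 of 28 members at 1 hr (9.21% of genes), 0 at 2 hr (4.22%) and 2 at 4 hr (7.49%), and for 0 members over all 9 injured libraries (0.425%).

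**Figure D2:**
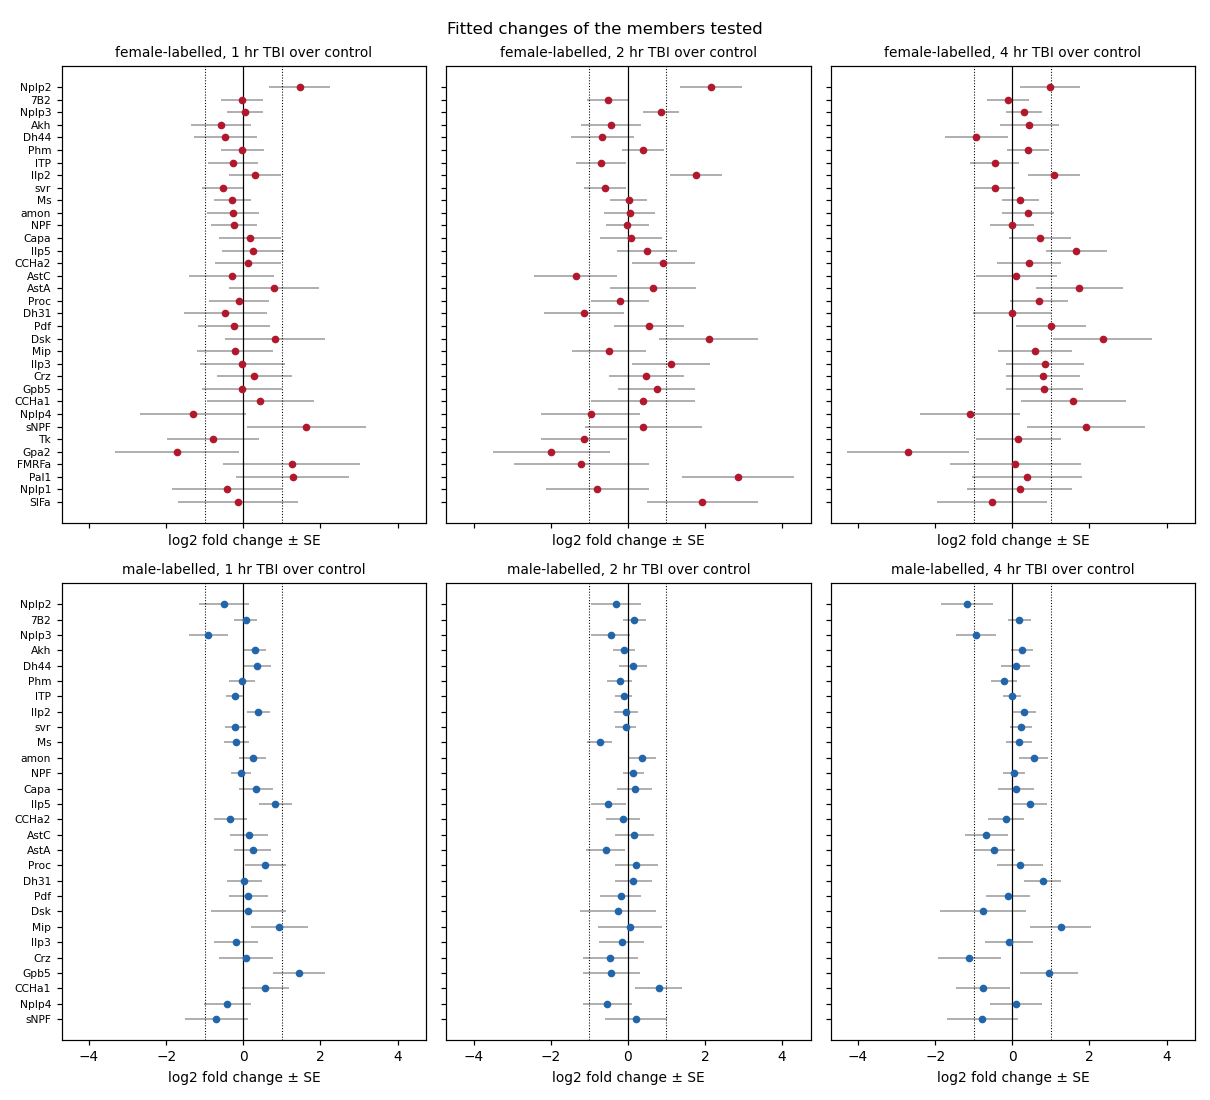
Fitted log2 difference of injured from control libraries with its standard error for every tested member, 34 under the female label and 28 under the male label, at each time. No point passes an adjusted p under 0.05 by edgeR's quasi-likelihood test, and Nplp2 at 2 hr under the female label is at 2.15 (SE 0.81).

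Nplp2, neuropeptide-like precursor 2, was the most abundant member by its median and is also known as a lipid-carrying protein of the fat body and the circulation. Female-labelled brains had 2040.5, 1825 and 1458 CPM in controls, 11555, 2390.4 and 936 CPM at 1 hr, 2499.8, 16991 and 4945 CPM at 2 hr, and 2180.0, 2713 and 5773 CPM at 4 hr. All 3 libraries at 2 hr and all 3 at 4 hr lay above every control, but 1 hr replicate 1 and 2 hr replicate 2 stood far above the rest. The log2 difference from control was 1.47 (SE 0.79) at 1 hr, 2.15 (SE 0.81) at 2 hr and 0.99 (SE 0.78) at 4 hr. At 2 hr the unadjusted p was 0.0176 and the adjusted p 0.547 by edgeR's quasi-likelihood test, which is not a call. Single libraries decided these sizes, since the difference was 1.08 at 2 hr without replicate 2 of that group (unadjusted p = 0.170 by edgeR) and -0.12 at 1 hr without replicate 1. Male-labelled brains had 2006, 8274 and 2216 CPM in controls, 2751, 3669 and 2808 CPM at 1 hr, 1309, 7730.1 and 1129 CPM at 2 hr, and 2232, 1470.2 and 2036 CPM at 4 hr. Here the high libraries were control replicate 2 and 2 hr replicate 2, and the other 10 lay between 1129 and 3669 CPM. The log2 differences were -0.50 (SE 0.66), -0.31 (SE 0.66) and -1.17 (SE 0.67) at 1, 2 and 4 hr, none at an unadjusted p under 0.05. The sizes turned on the high libraries here too. At 2 hr the difference was -1.85 without 2 hr replicate 2 (unadjusted edgeR p of 0.00152, adjusted 0.360) and 0.75 without control replicate 2. At 4 hr it was -1.51 without control replicate 1 (unadjusted edgeR p of 0.0497, adjusted 0.555) and -0.13 without control replicate 2. Male-labelled 1 hr and 2 hr libraries were also compared with controls of the same replicate number. The labels give these numbers no meaning, and a 2 hr library matched its own number best in 1 of 3 cases. Nplp2 was lower at 2 hr than in the same-numbered control in 3 of 3 cases. The share of all genes with such a count was not obtained, so nothing particular to Nplp2 is read from it. The difference fitted with the replicate number as a block, over all male-labelled libraries including those at 4 hr, was -0.47 (unadjusted edgeR p of 0.332). At 1 hr Nplp2 was lower only for replicate 2, and the blocked difference was -0.14 (unadjusted edgeR p of 0.773).

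Fat body markers were high in some of the libraries with high Nplp2 and low in others. The summed level of 9 fat body markers, among them the yolk protein gene Yp1, was 38549.7 CPM in female-labelled 1 hr replicate 1 and 37064 CPM in 2 hr replicate 2, the first and second highest of the 24 libraries. In male-labelled control replicate 2 and 2 hr replicate 2, where Nplp2 was at 8274 and 7730.1 CPM, the fat body sum was 4646 and 4593 CPM, the lowest of the 24. Over the other 20 libraries the sum was between 4843 and 12585 CPM. The part of these markers in the Nplp2 level was not tested.

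Nplp3, a second abundant neuropeptide-like precursor, had 806, 521 and 506 CPM in controls, 811, 539.8 and 553 CPM at 1 hr, 704, 1879 and 833 CPM at 2 hr, and 602, 737 and 954 CPM at 4 hr in female-labelled brains. Male-labelled brains had 732, 2490.3 and 853 CPM in controls, 744, 813 and 719 CPM at 1 hr, 558, 1914 and 565 CPM at 2 hr, and 660.1, 879 and 667 CPM at 4 hr. The level was between 506 and 954 CPM in 21 libraries and between 1879 and 2490.3 CPM in 3, female-labelled 2 hr replicate 2, male-labelled control replicate 2 and male-labelled 2 hr replicate 2, which also had high Nplp2. The female control libraries overlapped the male control libraries, with log2 difference -1.15 (SE 0.50) between controls (unadjusted p = 0.0303, adjusted p = 1 by edgeR). Without male control replicate 2 this difference was -0.37. Nplp3 also had the smallest p of the members at 4 hr under the male label, with -0.95 (SE 0.52) and an unadjusted edgeR p of 0.0888, and there too the difference shrank without control replicate 2, to -0.12. Without control replicate 1 it was -1.26 (unadjusted edgeR p of 0.0336), and the 1 hr difference under the male label was -1.22 (unadjusted edgeR p of 0.0364). With all libraries that 1 hr difference did not pass the descriptive rule, and without control replicate 2 it was -0.05 (unadjusted edgeR p of 0.909). The male-labelled 2 hr difference was -1.35 without 2 hr replicate 2 (unadjusted edgeR p of 0.00558, adjusted 0.360) and 0.42 without control replicate 2. Set against the same-numbered male-labelled controls, Nplp3 was lower at 2 hr in 3 of 3 cases, with -0.47 and an unadjusted edgeR p of 0.174 in the blocked fit. Here too the share of all genes with such a count was not obtained, and nothing particular to Nplp3 is read from it. At 1 hr Nplp3 was lower for replicates 2 and 3 and higher for replicate 1, with -0.63 (unadjusted edgeR p of 0.0796).

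Ilp2, Ilp3 and Ilp5 encode the insulin-like peptides of the insulin-producing cells of the brain, which release them into the circulation. Ilp2 was at 118, 166 and 123 CPM in controls, 243, 123 and 136 CPM at 1 hr, 186, 974 and 285 CPM at 2 hr, and 159, 535 and 181 CPM at 4 hr in female-labelled brains. All 3 libraries at 2 hr lay above every control, and 2 hr replicate 2 and 4 hr replicate 2 were the highest of the series. The log2 difference at 2 hr was 1.77 (SE 0.68), with an unadjusted p of 0.0199 and an adjusted p of 0.561 by edgeR. It was 0.79 without 2 hr replicate 2 (unadjusted p = 0.193 by edgeR). At 1 and 4 hr the log2 differences were 0.31 (SE 0.67) and 1.08 (SE 0.67). Male-labelled brains had Ilp2 levels of 177, 94.1 and 154 CPM in controls, 165, 218 and 182 CPM at 1 hr, 189, 93.2 and 148 CPM at 2 hr, and 165, 186 and 179.6 CPM at 4 hr, which overlapped at each time, with log2 differences of 0.39, -0.03 and 0.30. For any TBI time against control, Ilp2 had the smallest p of the members, at 0.67 (SE 0.33) and an unadjusted edgeR p of 0.0542. Without female-labelled 2 hr replicate 2 this difference was 0.50.

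Ilp5 was at 47.2, 40.3 and 76.7 CPM in controls, 69.7, 77.1 and 42.6 CPM at 1 hr, 91.1, 21.1 and 108 CPM at 2 hr, and 64.1, 340.1 and 90.7 CPM at 4 hr in female-labelled brains. The other 11 libraries lay between 21.1 and 108 CPM, and 4 hr replicate 2 stood alone. Here the log2 difference at 4 hr was 1.66 (SE 0.78) with all libraries (unadjusted p = 0.0503, adjusted p = 0.929 by edgeR) and 0.59 without that library. It was 1.97 (unadjusted edgeR p of 0.0277) without 4 hr replicate 1 and 1.96 (unadjusted edgeR p of 0.0380) without 4 hr replicate 3. Male-labelled brains had 54.1, 27.7 and 82.9 CPM in controls, 85.2, 98.6 and 85.5 CPM at 1 hr, 35.1, 19.7 and 56.0 CPM at 2 hr, and 63.7, 84.5 and 66.9 CPM at 4 hr. The 3 male-labelled libraries at 1 hr lay just above every control, with a log2 difference of 0.82 (SE 0.43) and an unadjusted edgeR p of 0.0731. Ilp3 was lower, with a median of 23.1 CPM over the 24 libraries, and its highest level, 98.4 CPM, was again in female-labelled 2 hr replicate 2.

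The 3 insulin-like genes added up to 1093 CPM in female-labelled 2 hr replicate 2 and 928 CPM in 4 hr replicate 2, against 130.3 to 434 CPM (median 256) in the other 22 libraries. Apart from Nplp2 and Nplp3, they made up 52.5% and 31.2% of the peptide reads in those 2 libraries, against 7.79 to 18.7% in the others. The composition of the 2 libraries differed in other members as well. In 2 hr replicate 2, Dsk, which encodes a cholecystokinin-like peptide also made in insulin-producing cells, was 6.04 times the median of the 10 other female-labelled libraries, and Ilp3 was 5.18 times it, both named after their values were seen. Ilp2 alone was at 974 CPM there, while Ilp5, the remaining insulin-like gene, was 0.288 times its median in those 10 libraries. The insulin-like genes were thus not all high in this library. Other members were high there as well, with Pal1 at 21.6, Nplp2 at 7.44, SIFa at 5.04 and Pal2 at 4.64 times that median. For Pal1, SIFa and Pal2 the median was only 6.04, 4.58 and 3.03 CPM. Dh44 was 0.0758, ITP 0.130 and 7B2 0.249 times that median, and AstA, AstC, Dh31, sNPF, CCHa1, Gpa2 and FMRFa had no read. In 4 hr replicate 2, Dsk was 8.57 times, Ilp5 4.64 times, Pdf 3.58 times and Ilp2 3.29 times the median, and Akh 0.149 times. Of the 24 members with a median of at least 20 CPM, the highest level of the series was in 4 hr replicate 2 for 9 and in 2 hr replicate 2 for 3, and the lowest was in 2 hr replicate 2 for 7.

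**Figure D3:**
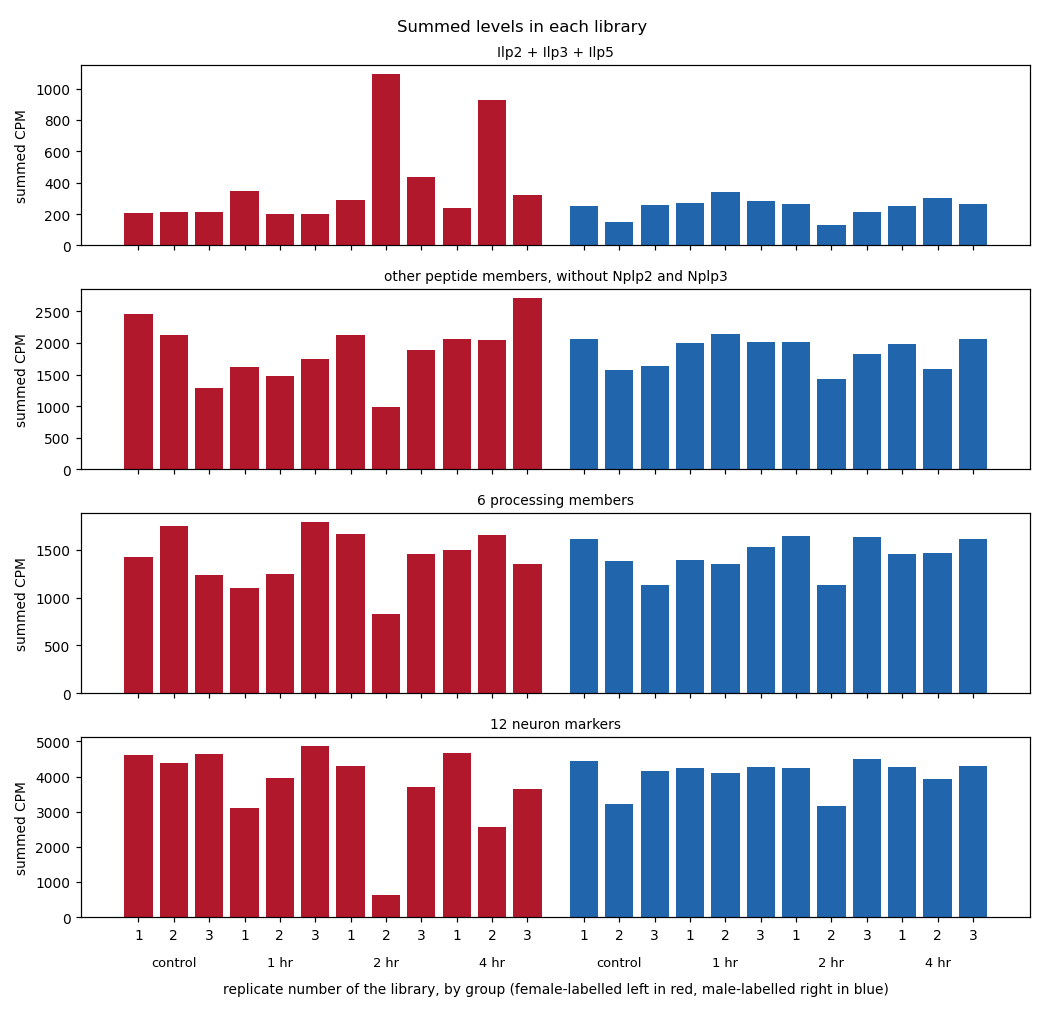
Bars of summed CPM in each of the 24 libraries, from top to bottom for Ilp2, Ilp3 and Ilp5, for the other peptide genes without Nplp2 and Nplp3, for the 6 processing genes and for 12 neuron markers. Female-labelled 2 hr replicate 2 and 4 hr replicate 2 have the highest insulin-like sums (1093 and 928 CPM) and the lowest neuron marker sums (640.4 and 2557 CPM).

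Ilp2 overlaps CG32052 on the same strand, and reads of the 2 genes may not have been told apart. CG32052 itself was at 41.2 CPM in 2 hr replicate 2 and 329 CPM in 4 hr replicate 2, against 223 to 879 CPM in the other 22 libraries. How reads of the overlap were assigned, and their part in the Ilp2 level, was not tested. Dh31 likewise overlaps Bace on the same strand, and 15 members overlap a gene on the other strand. The sources used here do not give the strand setting of the counting, so a member and a gene on the other strand cannot be told apart either.

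**Figure D4:**
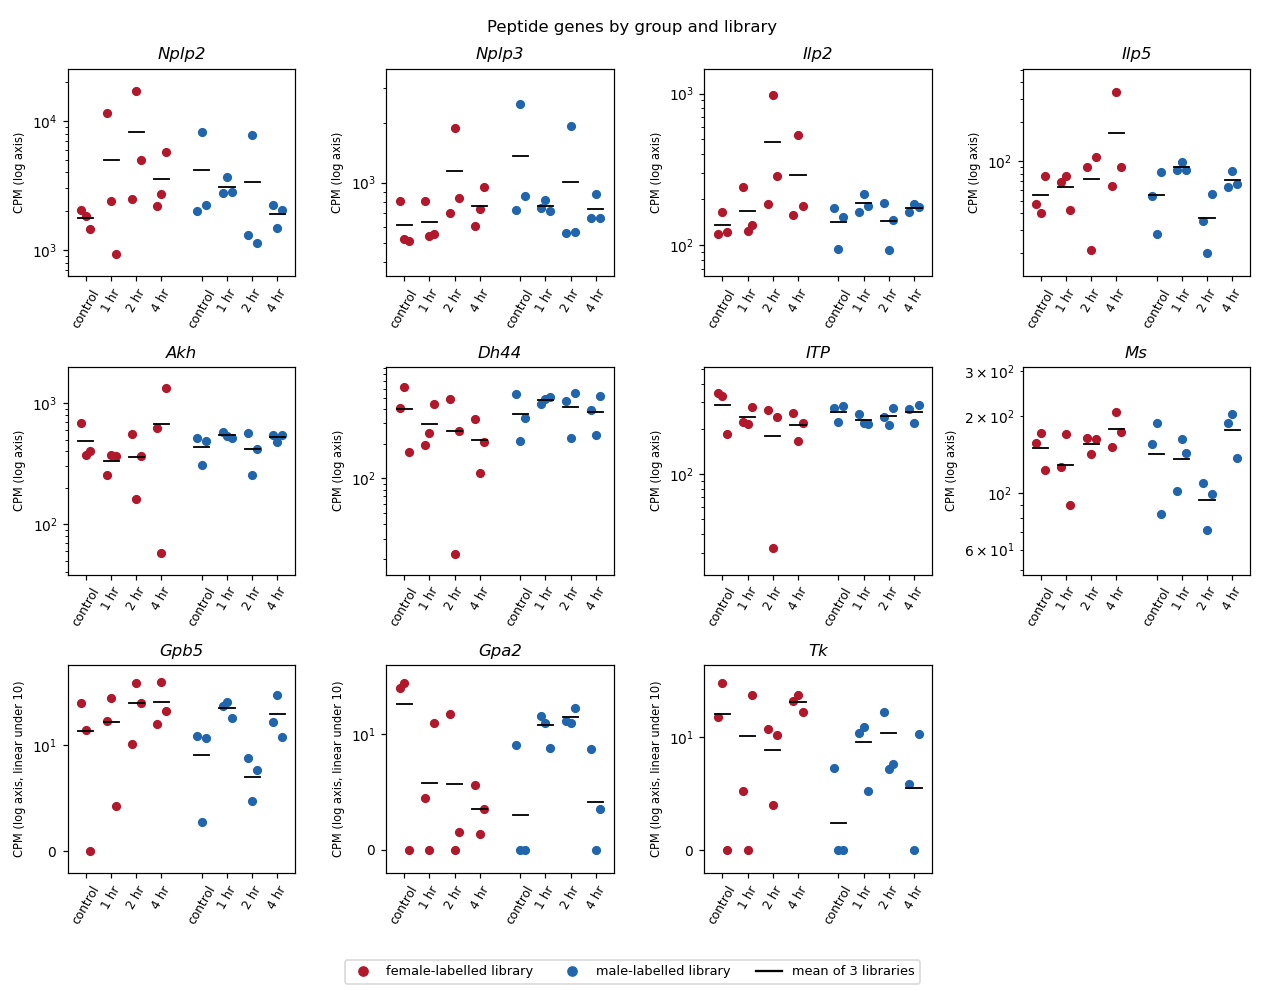
CPM of 11 peptide genes in every library by sex label and time, with 1 point for each library and a line at the mean of the 3 libraries. Female-labelled 2 hr replicate 2 holds the highest Nplp2 (16991 CPM) and Ilp2 (974 CPM), and female-labelled 4 hr replicate 2 the highest Ilp5 (340.1 CPM).

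Akh encodes adipokinetic hormone, made in the corpora cardiaca beside the brain, which mobilises stored fat and sugar. Female-labelled brains had 688, 376 and 399 CPM in controls, 256, 370.1 and 366 CPM at 1 hr, 555, 162 and 366 CPM at 2 hr, and 622, 57.6 and 1331 CPM at 4 hr. At 1 hr all 3 libraries lay below every control, but the log2 difference of -0.58 (SE 0.78) had an unadjusted edgeR p of 0.471, and at 4 hr the libraries spanned the range from 57.6 to 1331 CPM. Male-labelled brains had 512, 307 and 486 CPM in controls, 580.2, 538 and 517 CPM at 1 hr, 571, 256 and 419.7 CPM at 2 hr, and 541, 473 and 548 CPM at 4 hr. At 1 hr all 3 lay above every control, with a log2 difference of 0.30 (SE 0.28) and an unadjusted edgeR p of 0.299. Akh marks the corpora cardiaca, and how much of this gland stayed on each dissected brain was not tested.

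Dh44 encodes a diuretic hormone related to corticotropin-releasing factor. Its level was 409, 619 and 169 CPM in controls, 195, 247 and 443 CPM at 1 hr, 491, 22.1 and 256 CPM at 2 hr, and 326, 111 and 206 CPM at 4 hr in female-labelled brains. The injured libraries overlapped the controls at each time, and the log2 differences were -0.46 (SE 0.82), -0.66 (SE 0.82) and -0.93 (SE 0.82) at 1, 2 and 4 hr. In male-labelled brains it was 542, 213 and 332 CPM in controls, 439.6, 489 and 503 CPM at 1 hr, 465, 225 and 549 CPM at 2 hr, and 388, 237 and 514 CPM at 4 hr. These libraries also overlapped, with log2 differences between 0.08 and 0.36.

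ITP encodes ion transport peptide, an antidiuretic hormone. Female-labelled brains had 346, 329.6 and 184 CPM in controls, 223, 216 and 281 CPM at 1 hr, 268, 32.1 and 241 CPM at 2 hr, and 254, 167 and 217 CPM at 4 hr. The level at 2 hr replicate 2 was the lowest of the 24 libraries. Male-labelled brains had 274, 221 and 284 CPM in controls, 250.2, 219 and 216 CPM at 1 hr, 242, 213 and 277 CPM at 2 hr, and 269, 219.7 and 287 CPM at 4 hr. Under the male label all 12 libraries lay between 213 and 287 CPM, with log2 differences of -0.21 (SE 0.23), -0.11 (SE 0.23) and 0.00 (SE 0.23) at 1, 2 and 4 hr.

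Ms encodes myosuppressin, which inhibits muscle contraction. Female-labelled brains had 157, 171 and 123 CPM in controls, 127, 169.6 and 89.4 CPM at 1 hr, 163, 142 and 163 CPM at 2 hr, and 151, 208 and 173 CPM at 4 hr, with log2 differences from -0.28 at 1 hr to 0.21 at 4 hr. It was at 155, 188 and 82.9 CPM in controls, 101, 162 and 143 CPM at 1 hr, 109.8, 71.9 and 99.2 CPM at 2 hr, and 188, 203 and 137 CPM at 4 hr in male-labelled brains. At 2 hr all 3 libraries lay below 2 of the 3 controls, and the log2 difference of -0.73 (SE 0.33) had the smallest p of the members at that time (unadjusted p = 0.0433, adjusted p = 1 by edgeR). It ranged from -0.91 without control replicate 3 to -0.47 without control replicate 2. Against the same-numbered controls, Ms was lower at 2 hr for replicates 1 and 2 and higher for replicate 3. With the replicate number as a block the difference was -0.72 (unadjusted edgeR p of 0.0444).

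Gpb5 and Gpa2 encode the subunits of a glycoprotein hormone related to thyrostimulin, and both were low. Gpb5 was at 27.5, 14.5 and 0 CPM in controls, 17.8, 30.8 and 4.26 CPM at 1 hr, 10.3, 45.2 and 27.6 CPM at 2 hr, and 16.7, 46.3 and 22.7 CPM at 4 hr in female-labelled brains, where injured libraries overlapped controls at each time. In male-labelled brains it was at 12.6, 2.77 and 11.8 CPM in controls, 25.7, 28.0 and 19.2 CPM at 1 hr, 8.78, 4.74 and 7.63 CPM at 2 hr, and 17.4, 33.8 and 12.3 CPM at 4 hr. All 3 libraries at 1 hr lay above every control, from 59 reads at 1 hr and 9 in controls. The log2 difference was 1.45 (SE 0.67), with an unadjusted p of 0.0473 and an adjusted p of 0.999 by edgeR. With the replicate number as a block it was 1.54 with an unadjusted edgeR p of 0.0512, which leaves 0 members at 1 hr. The check of same-numbered libraries held at 1 hr but not for the 4 hr libraries, which were in the same fit. Without control replicate 2 the unblocked difference was 0.98, and without control replicate 1 it was 2.20.

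Gpa2 was at 27.5, 30.6 and 0 CPM in controls, 4.45, 0 and 12.8 CPM at 1 hr, 15.5, 0 and 1.49 CPM at 2 hr, and 5.58, 1.32 and 3.49 CPM at 4 hr in female-labelled brains. Of the 45 reads in controls, most came from the deepest control library, and the log2 differences of -1.71 (SE 1.60), -1.99 (SE 1.52) and -2.70 (SE 1.58) at 1, 2 and 4 hr had unadjusted edgeR p-values of 0.302, 0.211 and 0.108. Male-labelled brains had 9.01, 0 and 0 CPM in controls, 14.9, 12.6 and 8.73 CPM at 1 hr, 13.2, 12.6 and 17.8 CPM at 2 hr, and 8.69, 0 and 3.52 CPM at 4 hr. With 5 reads in the male controls, it was not tested within the male label.

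Tk encodes the tachykinins, modulators of olfactory, feeding and aggressive behaviour. It was at 15.7, 33.8 and 0 CPM in controls, 5.19, 0 and 25.5 CPM at 1 hr, 12.03, 4.01 and 10.4 CPM at 2 hr, and 22.3, 25.8 and 17.4 CPM at 4 hr in female-labelled brains and at 7.21, 0 and 0 CPM in controls, 10.8, 12.6 and 5.24 CPM at 1 hr, 17.6, 7.11 and 7.63 CPM at 2 hr, and 5.79, 0 and 10.6 CPM at 4 hr in male-labelled brains. Female controls had 46 reads and male controls 4, and the libraries of both overlapped, since female control replicate 3 had none. The log2 difference between female and male controls was 2.49 (SE 1.14) (unadjusted p = 0.0390, adjusted p = 1 by edgeR). It was 1.56 without female control replicate 2, while without male control replicate 1 the male controls had no read, so no fold is given. Under the female label, injured libraries overlapped the controls, with log2 differences of -0.78 (SE 1.19), -1.14 (SE 1.12) and 0.16 (SE 1.11).

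Among the processing genes, amon encodes the prohormone convertase of neuroendocrine cells, the enzyme that cuts precursors at paired basic residues. It was at 110.1, 117 and 46.0 CPM in controls, 91.9, 15.4 and 115 CPM at 1 hr, 137, 44.2 and 114 CPM at 2 hr, and 128, 155 and 96.0 CPM at 4 hr in female-labelled brains and at 109.9, 55.3 and 82.9 CPM in controls, 96.0, 75.4 and 133 CPM at 1 hr, 92.2, 95.6 and 139.9 CPM at 2 hr, and 104, 186 and 113 CPM at 4 hr in male-labelled brains. The injured libraries overlapped the controls at each time under both labels, and male-labelled 4 hr replicate 2 was the highest of all. The log2 differences ran from -0.26 at 1 hr under the female label to 0.56 at 4 hr under the male label.

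7B2 encodes the helper protein that the convertase needs to mature, and was the most abundant processing gene. Female-labelled brains had 873, 869.6 and 844 CPM in controls, 462, 817 and 1255 CPM at 1 hr, 960.4, 214 and 649.5 CPM at 2 hr, and 909, 930.2 and 557 CPM at 4 hr. The 3 controls lay close together, at 862 ± 15.7 CPM (SD, n = 3), and the injured libraries spread to both sides of them, with 2 hr replicate 2 the lowest of the series. Male-labelled brains had 984, 581 and 616 CPM in controls, 818, 645 and 876 CPM at 1 hr, 1036, 470.0 and 1035 CPM at 2 hr, and 880.1, 744 and 881 CPM at 4 hr. The log2 differences were -0.04 (SE 0.55), -0.51 (SE 0.55) and -0.12 (SE 0.55) under the female label and 0.06 (SE 0.29), 0.17 (SE 0.29) and 0.18 (SE 0.29) under the male label, none beyond its error.

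svr encodes a carboxypeptidase D, which trims basic residues from the cleaved peptides. Female-labelled brains had 177, 172 and 230.2 CPM in controls, 91.9, 154 and 162 CPM at 1 hr, 165, 68.3 and 150.5 CPM at 2 hr, and 170.1, 152 and 100.3 CPM at 4 hr. All 9 injured libraries lay below every control, 68.3 to 170.1 CPM against 172.5 to 230.2 CPM. The log2 differences of -0.52 (SE 0.55), -0.59 (SE 0.53) and -0.45 (SE 0.53) at 1, 2 and 4 hr had unadjusted edgeR p-values of 0.354, 0.285 and 0.407. Male-labelled brains had 151, 163 and 189.6 CPM in controls, 137, 146 and 159 CPM at 1 hr, 206, 118 and 173 CPM at 2 hr, and 174, 253 and 185 CPM at 4 hr, with injured libraries on both sides of the controls and log2 differences of -0.21, -0.05 and 0.22.

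Amidation takes place in steps, the first by the monooxygenase encoded by Phm and the next by the lyases encoded by Pal1 and Pal2. Phm was at 263, 551 and 123 CPM in controls, 443, 262 and 238 CPM at 1 hr, 390.0, 360.3 and 531 CPM at 2 hr, and 293, 409.5 and 578 CPM at 4 hr in female-labelled brains and at 346, 559 and 237 CPM in controls, 341, 481 and 351 CPM at 1 hr, 299, 438 and 282 CPM at 2 hr, and 289.5, 287 and 431 CPM at 4 hr in male-labelled brains. These levels overlapped at each time, and the log2 differences lay between -0.23 and 0.40 with standard errors of 0.33 to 0.55. Pal1 was far lower. It was at 0, 12.1 and 0 CPM in controls, 17.8, 0 and 21.3 CPM at 1 hr, 6.87, 130.5 and 5.21 CPM at 2 hr, and 2.79, 5.95 and 14.8 CPM at 4 hr in female-labelled brains, where 2 hr replicate 2 stood alone, and the log2 difference at 2 hr was 2.86 (SE 1.45) with an unadjusted edgeR p of 0.0678. Male-labelled brains had 14.4, 22.1 and 11.8 CPM in controls, 5.41, 1.93 and 3.49 CPM at 1 hr, 4.39, 13.4 and 2.54 CPM at 2 hr, and 2.90, 0 and 0 CPM at 4 hr. At 1 hr and 4 hr the male-labelled libraries lay below every control, from 8 and 1 reads at 1 and 4 hr and 17 in controls. Control replicate 3 had 1 of these reads. In 4 hr replicate 2, the shallowest library, 1 count was worth 16.9 CPM, so its 0 says little. Among the tested genes, which leave out Pal1, 9.21% and 7.49% did not overlap at 1 and 4 hr. The ratio of the pooled Pal1 CPM to that of controls was 0.201 at 1 hr (95% exact interval 0.0749 to 0.491) and 0.0605 at 4 hr (0.00145 to 0.386), intervals that cover counting error only and not the spread between brains. Too few reads left Pal1 out of the main test within the male label. With no filter on low counts, the log2 difference was -2.11 at 1 hr and -3.66 at 4 hr (unadjusted edgeR p of 0.0452 and 0.0121). With DESeq2 it was -2.31 and -3.41 (unadjusted DESeq2 p of 0.0483 and 0.0203). None of these passed the adjusted threshold.

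Pal2 had 86 reads in 15 libraries and was not tested in any comparison. Female-labelled brains had 3.93, 28.2 and 0 CPM in controls, 0, 0 and 4.26 CPM at 1 hr, 3.44, 14.1 and 4.47 CPM at 2 hr, and 0, 0 and 2.62 CPM at 4 hr, and male-labelled brains had 12.6, 0 and 0 CPM in controls, 0, 0.967 and 12.2 CPM at 1 hr, 4.39, 3.16 and 2.54 CPM at 2 hr, and 2.90, 0 and 3.52 CPM at 4 hr. Most of the reads of female controls came from replicate 2, which was also the deepest control.

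**Figure D5:**
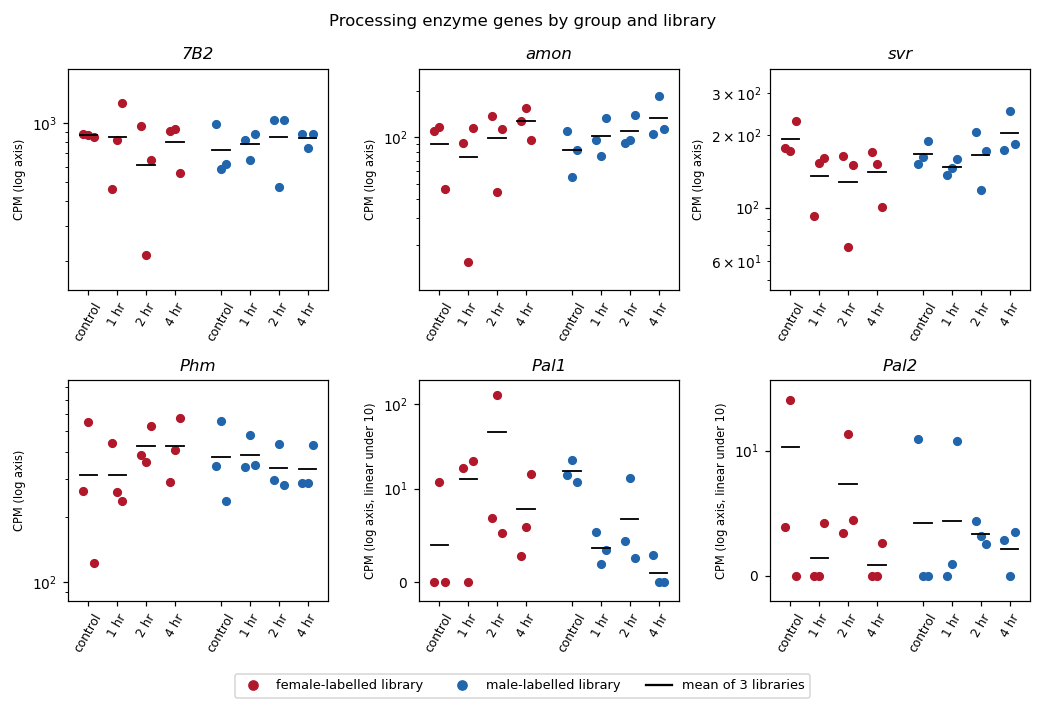
CPM of the 6 processing genes in every library by sex label and time, with 1 point for each library and a line at the mean of the 3 libraries. The 9 injured female-labelled libraries have svr at 68.3 to 170.1 CPM, all below the controls at 172.5 to 230.2 CPM, and Pal1 is at 130.5 CPM in female-labelled 2 hr replicate 2.

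The summed level of the members shows how far a few genes set the total. All members added up to 4712 to 21782 CPM per library, of which Nplp2 made up 17.9 to 78.0%. Without Nplp2 and Nplp3, the peptide genes added up to 1504 to 3037 CPM, and the 6 processing genes to 831 to 1796 CPM. The processing sum was lowest in female-labelled 2 hr replicate 2 and was 1107 to 1796 CPM in the other libraries. Under the female label it averaged 1474 ± 257 CPM in controls, 1384 ± 364 CPM at 1 hr, 1316 ± 433 CPM at 2 hr and 1502 ± 152 CPM at 4 hr (SD, n = 3 each). Under the male label it averaged 1379 ± 240.4 CPM in controls, 1427 ± 95.5 CPM at 1 hr, 1472 ± 289 CPM at 2 hr and 1512 ± 87.8 CPM at 4 hr. The peptide sum without Nplp2 and Nplp3 averaged 2174 ± 603 CPM in female controls and 1862 ± 157 CPM, 2269.7 ± 169 CPM and 2772 ± 403 CPM at 1, 2 and 4 hr. Each of these differences from control was smaller than the SD of the controls.

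The change after injury was also compared between the sex labels, with the difference of the 2 changes tested directly. At 2 hr, 4 members passed the descriptive rule. The difference, female label over male label, was 1.82 (SE 0.77) log2 units for Ilp2 (unadjusted edgeR p of 0.0275), 2.51 (SE 1.13) for Nplp2 (unadjusted edgeR p of 0.0357), 4.01 (SE 1.71) for Pal1 (unadjusted edgeR p of 0.0277) and -3.84 (SE 1.76) for Gpa2 (unadjusted edgeR p of 0.0391). The adjusted edgeR p of each was 0.850. Without female-labelled 2 hr replicate 2 the differences were 0.80 for Ilp2, 1.38 for Nplp2, 1.06 for Pal1 and -3.21 for Gpa2, with unadjusted edgeR p-values of 0.227, 0.207, 0.977 and 0.0612. Nplp2 was at 1.49 without male control replicate 2 and at 3.92 without male-labelled 2 hr replicate 2, and Gpa2 at -6.29 without female-labelled 2 hr replicate 1. Only 1 of the 3 male controls had a Gpa2 read and only 1 of the 3 female controls a Pal1 read, so both values rest on those libraries. Pal1 had the smallest p of the members at 1 and 4 hr, at 3.43 (SE 1.75) and 4.08 (SE 2.06) with unadjusted edgeR p-values of 0.0628 and 0.0592.

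The median sex-label difference of the 31 tested members was -0.18 at 1 hr, -0.15 at 2 hr and 0.55 at 4 hr, beside 0.06, -0.06 and 0.03 for all tested genes. The 4 hr median was 0.12 without female-labelled 4 hr replicate 2 and the 2 hr median 0.34 without female-labelled 2 hr replicate 2. Between female and male controls the median was 0.17, with 18 of 31 members higher and 13 lower in female controls, beside -0.02 for all genes. For any TBI time against control it was also 0.17, with 18 of 31 members positive, beside 0.00.

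Genes that act with the members were read from lists chosen by role. Of 37 neuropeptide receptor genes, 12 passed the filter under the female label and 6 under the male label, so most receptors were too low to test. The female-labelled medians of the tested receptors were -0.49, -0.86 and -1.02 at 1, 2 and 4 hr, with 10, 10 and 9 of 12 negative, beside neuron marker medians of -0.16, -0.78 and -0.53. Under the female label the summed receptor level was 822, 538 and 875 CPM in controls, 354, 571 and 813 CPM at 1 hr, 538, 61.2 and 354 CPM at 2 hr, and 579.9, 367 and 297 CPM at 4 hr. Only 4 of the 37 receptors had a read in 2 hr replicate 2. The receptor for Dh31, Dh31-R, was the only receptor past the descriptive rule under the female label, at 1 hr, where it had 0 reads in the 3 libraries, against 15 reads in controls, and an unadjusted p of 0.0260 and an adjusted p of 1.00 by edgeR. Over the pooled libraries, set at a floor of 3 counts at 1 hr, it was 5.28-fold lower than in controls. The exact 95% upper limit of the ratio was 0.264, which covers counting error only, and control replicate 3 had no Dh31-R read either. Over all genes, 1.66% passed the descriptive rule at 1 hr under the female label. Under the male label the receptor medians were -0.51, -0.20 and 0.13, and 0 of 6 passed the descriptive rule by edgeR.

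The same rule was applied to other peptide genes and the wider release machinery. Over all genes, 1.66%, 7.13% and 5.09% passed it at 1, 2 and 4 hr under the female label. At 1 hr under the male label, 0.916% passed. The genes named below are listed as a description, and nothing particular to these lists is read from them. Of 13 other peptide genes, 4 were tested under the female label and 3 under the male label, and 0 passed in any comparison by edgeR. Of 13 other processing and dense-core vesicle genes, 12 were tested under the female label, and QC, a glutaminyl cyclase that forms the blocked amino end of some peptides, had 3.93, 24.2 and 15.3 CPM in controls, 78.6, 0 and 8.51 CPM at 1 hr, 29.2, 233 and 49.2 CPM at 2 hr, and 25.1, 156 and 87.2 CPM at 4 hr. Its log2 difference was 2.68 (SE 1.15) at 2 hr and 2.51 (SE 1.14) at 4 hr, and its highest levels were again in replicate 2 of these groups. Of 8 genes for peptidases that degrade peptides, 6 were tested, and Nep2, a neprilysin, was at 3.23 (SE 1.30) at 4 hr under the female label, with 206 CPM in replicate 2 and 2.79 and 36.6 CPM in the other libraries, against 3.93, 9.67 and 15.3 CPM in controls. Of 17 synaptic vesicle and active zone genes in the count table, 16 were tested. Syngr, which encodes synaptogyrin, had 7, 54 and 24 reads at 1, 2 and 4 hr under the female label, against 0 in controls. With the pooled controls set at a floor of 3 counts, its pooled level was 2.21-fold, 9.62-fold and 4.14-fold higher. The exact 95% lower limits of the ratio were 1.36, 7.56 and 3.11, which cover counting error only and not the spread between brains. Csp was at 2.72 (SE 1.17) at 2 hr, with 147 CPM in replicate 2 and 12.03 and 12.7 CPM in the other libraries, against 15.7, 5.64 and 0 CPM in controls. Rab3 was at 1.22 (SE 0.47) at 1 hr under the male label, with 55.5, 49.3 and 61.1 CPM, against 37.8, 11.1 and 11.8 CPM in controls. The lowest adjusted p of these genes was 0.514 by edgeR, for Syngr at 2 hr under the female label.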

How the data were processed

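The authors made QuantSeq 3′ FWD libraries from single brains, demultiplexed the 50 bp reads with CASAVA 1.8.2, aligned them to build dm3 with STAR 2.4 and tabulated them per gene with HTSeq. The version, annotation and strand setting of HTSeq were not named in the sources read here. The deposited values are raw read counts for 16995 gene symbols in 24 libraries, with totals of 46943 to 1769669. Another 6 deposited tables hold the authors' own comparisons from edgeR 3.22.3 (fold changes, likelihood ratios, p-values) and were not used.

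Groups came from the sample titles, and the 3 libraries of a group are separate flies. Members were matched by symbol. All 42 also matched Ensembl and RefSeq gene names, which served for names and overlaps only. CPM were scaled by TMM factors over all libraries. The main test was the quasi-likelihood F test of edgeR 4.0.16 in R 4.3.3 on the counts, with TMM factors and filterByExpr by group. The 3 injured groups and the control of 1 sex label shared a fit (12 libraries) for the injury comparisons. All 24 libraries shared a fit for controls, any TBI time and the sex-label differences. P-values were adjusted by the Benjamini-Hochberg method over all tested genes. A call needed an adjusted p under 0.05 and an absolute log2 fold change over 1. SE is the absolute log2 fold change divided by the square root of F. The 3 count floor and the exact intervals at the 95% level cover counting error only.

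Alternatives were RLE size factors, no filter on low counts, DESeq2 1.42.0, voom with sample weights in limma 3.58.1, the replicate number as a block, leaving out female-labelled 2 hr and 4 hr replicate 2, and leaving out each library. Nothing in the labels says what a replicate number shares. Correlations of same-numbered deviations from the group means were all over 0.1 for male-labelled 1 hr (0.143 to 0.398) and 2 hr libraries (0.191 to 0.583) with their controls, which were taken as paired, and between -0.193 and 0.0891 for the other groups. The block fit of the male label held all 12 of its libraries, also those at 4 hr, where these correlations were not over 0.1. The scripts were tested on simulated data.

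The members and lists were chosen with earlier results of these data known. Values per library were given for members past the descriptive rule in any comparison, the member with the smallest p in each, the 8 highest by median CPM and the 6 processing genes, and for genes of other lists past that rule, at most 4 for each list and comparison. Others are given by ranges and counts. No sequence is shown. Scripts also used Python 3.11.15, numpy 2.4.6, scipy 1.17.1, pandas 2.3.3 and matplotlib 3.10.9.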

Additional observations from a re-analysis of the deposited data

Results flagged for a closer look

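For 7 pairs of a member and a time, among the members given with values in every library, every injured library lay on 1 side of the mean of its controls under the female label and on the other side under the male label. The difference of the 2 changes (female label over male label, log2) was tested by edgeR's quasi-likelihood test in each case, and every adjusted p was 0.743 or higher. The same pattern was present in 8.53%, 6.98% and 12.2% of the 5462 genes tested over all libraries at 1, 2 and 4 hr, and in 2, 3 and 5 of all 31 tested members, of which 3 at 4 hr (AstA, Crz and sNPF) are not among the 7 pairs. These counts of members are near the share among all genes, and nothing particular to the members is read from them.

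At 1 hr, Gpa2 was at 4.45, 0 and 12.8 CPM in female-labelled injured brains, against a control mean of 19.4 CPM, and at 14.9, 12.6 and 8.73 CPM in male-labelled injured brains, against 3.003 CPM, a difference of -3.26 (unadjusted edgeR p of 0.0839). Akh at 1 hr was at 256, 370.1 and 366 CPM, against 488 CPM, under the female label and at 580.2, 538 and 517 CPM, against 435 CPM, under the male label, a difference of -0.90 (unadjusted edgeR p of 0.314). Gpa2 at 2 hr was at 15.5, 0 and 1.49 CPM, against 19.4 CPM, under the female label and at 13.2, 12.6 and 17.8 CPM, against 3.003 CPM, under the male label, a difference of -3.84 (unadjusted edgeR p of 0.0391). Tk at 2 hr was at 12.03, 4.01 and 10.4 CPM, against 16.5 CPM, under the female label and at 17.6, 7.11 and 7.63 CPM, against 2.403 CPM, under the male label, a difference of -2.70 (unadjusted edgeR p of 0.0865).

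The other 3 pairs were Pal1, Nplp2 and svr. Pal1 at 2 hr was at 6.87, 130.5 and 5.21 CPM, against 4.03 CPM, under the female label and at 4.39, 13.4 and 2.54 CPM, against 16.1 CPM, under the male label, a difference of 4.01 (unadjusted edgeR p of 0.0277). Nplp2 at 4 hr was at 2180.0, 2713 and 5773 CPM, against 1775 CPM, under the female label and at 2232, 1470.2 and 2036 CPM, against 4165 CPM, under the male label, a difference of 2.13 (unadjusted edgeR p of 0.0703). Control replicate 2 set that male mean, which was 2111 CPM without it, and 1 of the 3 male-labelled injured libraries then lay above the mean. svr at 4 hr was at 170.1, 152 and 100.3 CPM, against 193 CPM, under the female label and at 174, 253 and 185 CPM, against 168 CPM, under the male label, a difference of -0.70 (unadjusted edgeR p of 0.224).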

How the results depend on the processing

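No member passed the adjusted threshold under RLE size factors, DESeq2, limma-voom, the replicate block or any left-out library, and only Nplp2 at 2 hr under the female label passed with no filter on low counts (log2 difference 2.09). That setting called 2, 95 and 13 genes at 1, 2 and 4 hr under the female label, 1 and 7 genes at 2 and 4 hr under the male label, 1 gene between controls, 6 genes for any TBI time, and 27 and 6 genes for the sex-label difference at 2 and 4 hr. DESeq2 gave no p-value for Nplp2 at 1, 2 or 4 hr under the male label. It called 47 genes at 2 hr under the female label and 2 genes for the sex-label difference at 2 hr. The cause of these differences was not tested. Without female-labelled 2 hr replicate 1, edgeR called 20 genes at 2 hr under that label and 3 genes for the sex-label difference, and leaving out 1 library otherwise gave 0.

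The number of members by the descriptive rule was as follows where it moved by over 1.5 times. With no filter it was 1, 5 and 3 at 1, 2 and 4 hr under the female label, 2 at 4 hr under the male label, and 1 and 2 for the sex-label difference at 1 and 4 hr. With RLE size factors it was 4 and 1 at 2 and 4 hr under the female label. With DESeq2 it was 1 at 4 hr under each label and 1 for the sex-label difference at 4 hr. At 1 hr under the male label the number stayed at 1, but the member was Pal1 with no filter and with DESeq2, against Gpb5 in the main test. With limma-voom it was 3 at 4 hr under the female label, 2 at 1 hr under the male label, and 2 and 4 for the sex-label difference at 1 and 4 hr. With the replicate block it was 0 at 1 hr under the male label and 2 and 1 for the sex-label difference at 1 and 4 hr, and it left the counts of members at the other comparisons as they were. Between controls the 2 members were Gpa2 (2.95, unadjusted edgeR p of 0.0377) and Tk with the block, against Nplp3 and Tk without it. The best match of a library was its own number in 2 of 3 cases for male-labelled 1 hr and 1 of 3 for 2 hr. Without female-labelled 2 hr and 4 hr replicate 2 it was 0 and 1 at 2 and 4 hr under the female label and 1 and 3 for the sex-label difference at 1 and 4 hr.

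Leaving out 1 library at a time gave 0 to 1, 0 to 4 and 0 to 2 members at 1, 2 and 4 hr under the female label, 0 to 3, 0 to 4 and 0 to 3 under the male label, 0 to 4 between controls, 0 for any TBI time, and 0 to 2, 1 to 5 and 0 to 3 for the sex-label difference at 1, 2 and 4 hr. The genes called ranged from 0 to 20 at 2 hr under the female label and from 0 to 3 for the sex-label difference at 2 hr. Nplp2 at 1 hr under the female label reversed, from 1.47 with all libraries to -0.12 without 1 hr replicate 1 and 1.92 without 1 hr replicate 3. The other values recomputed, those of members past the descriptive rule or with the smallest p of a comparison, kept their direction and their side of the adjusted threshold, with the exception of Nplp2 given above. Several crossed the descriptive rule with 1 library left out. Ilp2 at 2 hr under the female label was 0.79 without 2 hr replicate 2 (unadjusted edgeR p of 0.193), Gpb5 at 1 hr under the male label was 1.33 to 1.59 with unadjusted edgeR p-values of 0.0717 to 0.138 without any 1 of the 3 injured libraries, and Ilp5 at 4 hr under the female label passed without 4 hr replicate 1 or replicate 3. Over all alternatives, the genes past the descriptive rule numbered 36 to 214, 102 to 791 and 89 to 823 at 1, 2 and 4 hr under the female label, 15 to 274, 79 to 391 and 27 to 360 under the male label, 69 to 291 between controls, 138 to 472 for any TBI time, and 81 to 321, 119 to 780 and 165 to 878 for the sex-label difference. The median of the members ranged from -0.33 to 0.13, -0.12 to 0.33 and 0.19 to 0.60 at 1, 2 and 4 hr under the female label, 0.02 to 0.21, -0.13 to 0.00 and 0.00 to 0.12 under the male label, 0.04 to 0.26 between controls, 0.01 to 0.27 for any TBI time, and -0.59 to -0.07, -0.36 to 0.34 and 0.10 to 0.69 for the sex-label difference. With 3 brains a group and 3 counts worth 1.98 to 50.7 CPM, members under about 20 CPM could be compared only where differences were large.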
